A study of Homo sapiens with 20 samples.

Results

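The clustered protocadherins are 53 protein-coding genes on chromosome 5 (GRCh38, plus strand, positions 140786136 to 141512977), chosen by symbol: every gene of the deposited tables whose symbol begins with PCDHA, PCDHB or PCDHG, with 6 pseudogenes and 1 antisense lncRNA dropped. They are 53 of the 60623 genes listed for pancreatic progenitors (PPs) and of the 60624 listed for human islet-like organoids (hILOs), and they fall into an alpha cluster of 15, a beta cluster of 16 and a gamma cluster of 22 genes. The rule uses no measured value. RNA-seq came from MEL1 INSGFP/W, an established human embryonic stem cell line with a GFP reporter at the endogenous insulin promoter, which all samples share, either wild type (WT) or carrying CRISPR-Cpf1 indels in the first exon of *ALKBH5*, the gene of an RNA N6-methyladenosine demethylase (A5-KO). The study also describes another knockout line, A5-KO2, and a rescue of A5-KO cells with wild-type *ALKBH5*, but the labels of these libraries name neither. A difference between genotypes here is thus also a difference between these cell lines. hILOs were sequenced as 2 WT and 2 A5-KO libraries without drug, and PPs as 16 libraries, 2 for each genotype after 0, 1, 2 or 3 h with the transcription inhibitor actinomycin D (Act D, 1 μg per ml; 0 h is the start of the series). The study's supplement describes the PP series as 2 biological replicates. For hILOs no label says that the libraries came from separate cultures, so their *p*-values measure the spread between these libraries, which may be technical.

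Clustered protocadherins are cell adhesion proteins whose combinations act as surface barcodes by which neurons tell their own branches from those of other cells. In the alpha and gamma clusters each gene consists of 1 large variable exon with a promoter of its own, which encodes the extracellular cadherin repeats, spliced to a few constant exons that all genes of the cluster share and that encode the common cytoplasmic end. Beta genes are single-exon genes with no constant exons. In neurons a cell chooses among the regular promoters at random, through CTCF, cohesin and DNA methylation, whereas the C-type isoforms at the end of the alpha and gamma clusters are mostly not part of this choice.

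The constant exons set what each table can say. The 15 alpha genes share 3 constant exons with 2869 bases and the 22 gamma genes share 3 with 2177 bases, beside 2011 to 10557 bases of exon that no other gene shares in 36 of these 37 genes. *PCDHA1* is left with 7 bases of its own, since the rest of its exons also belongs to other members or to an antisense transcript. The first constant exon of each cluster is shown because it is joined to every variable exon of that cluster and cannot tell the members apart (hg38, plus strand, 5′ to 3′, capitals mark the 39 of 59 bases that are the same in both clusters).
alpha constant exon (chr5:140978949-140979007): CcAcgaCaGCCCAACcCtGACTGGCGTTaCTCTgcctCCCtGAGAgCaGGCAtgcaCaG
gamma constant exon (chr5:141494807-141494865): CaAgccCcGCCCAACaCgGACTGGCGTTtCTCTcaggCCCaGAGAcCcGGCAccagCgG

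The promoters are shown because each member has its own and because members that moved, or stayed silent, can be set beside each other. RefSeq promoter windows (GRCh38.p14) were found for 47 of the 53 members, and the letters CGCT, the core of the sequence element known from these promoters, were searched between 100 and 31 bases before the start of the gene. On the gene strand CGCT was in 43 of the 47 stretches (91.5%), beside 21.3% of all 35116 promoters of the table, and on either strand in 43 of 47 beside 36.0%. The motif lay 38 to 95 bases before the start, with a median of 60.0. The 4 stretches without it belong to *PCDHA9*, *PCDHB5*, *PCDHB8* and *PCDHGB2*. These counts are of the 4 letters alone, and whether the longer element surrounds them was not tested. The *PCDHB1* window shared 11 to 17 of 40 bases with the other beta windows, beside a median of 25 over 66 beta pairs. The *PCDHGC4* window shared 14 to 25 with the other gamma windows, beside a median of 24. The sequences below run 5′ to 3′ on the plus strand for 40 bases, with CGCT in capitals at the copy farthest upstream. The first group holds 3 alpha genes with clear RNA in PPs and then *PCDHA7*, which had little.
PCDHA4 (chr5:140806977-140807016): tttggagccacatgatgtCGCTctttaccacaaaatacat
PCDHA10 (chr5:140855839-140855878): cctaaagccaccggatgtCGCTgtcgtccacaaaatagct
PCDHA12 (chr5:140875242-140875281): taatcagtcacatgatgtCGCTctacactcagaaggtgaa
PCDHA7 (chr5:140834170-140834209): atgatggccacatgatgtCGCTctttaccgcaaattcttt

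*PCDHA7* shares 30 of 40 bases with *PCDHA4*, but 24 with *PCDHA10* and 21 with *PCDHA12*, beside a median of 23 over 66 alpha pairs. The beta group holds *PCDHB2*, the leading beta gene in PPs, and the 2 beta genes that limma called different between the genotypes at 0 h.
PCDHB2 (chr5:141094542-141094581): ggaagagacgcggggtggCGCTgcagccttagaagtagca
PCDHB16 (chr5:141182308-141182347): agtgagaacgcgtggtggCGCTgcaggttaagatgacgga
PCDHB13 (chr5:141213863-141213902): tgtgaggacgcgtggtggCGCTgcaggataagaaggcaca

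Among the gamma windows *PCDHGB4* and *PCDHGB5* share 39 of 40 bases, the highest count of any of the 171 gamma pairs, against a median of 24.0 for gamma pairs. The window of *PCDHGA3*, which had no read in any PP library, has the letters CGCT too. The capitals in the *PCDHGB7* window mark a copy that matches the downstream copy of *PCDHGB6*. At the place of the upstream *PCDHGB6* copy, *PCDHGB7* reads CGCC. Its window is therefore not aligned with that of *PCDHGB6*, and its match to CGCT rests on the downstream copy alone.
PCDHGB4 (chr5:141387615-141387654): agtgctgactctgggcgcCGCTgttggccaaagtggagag
PCDHGB5 (chr5:141397861-141397900): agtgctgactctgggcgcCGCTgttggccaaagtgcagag
PCDHGB6 (chr5:141407922-141407961): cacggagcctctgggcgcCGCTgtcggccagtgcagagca
PCDHGB7 (chr5:141417605-141417644): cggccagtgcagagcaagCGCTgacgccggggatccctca
PCDHGA10 (chr5:141412929-141412968): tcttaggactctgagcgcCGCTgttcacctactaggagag
PCDHGA3 (chr5:141343765-141343804): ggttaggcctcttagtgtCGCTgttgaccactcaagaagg
PCDHGC3 (chr5:141475878-141475917): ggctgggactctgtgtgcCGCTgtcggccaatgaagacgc
PCDHGC4 (chr5:141484950-141484989): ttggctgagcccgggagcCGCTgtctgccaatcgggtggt

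PP libraries held 30516384 to 35206514 reads, recovered from the deposited CPM, which scale each gene's counts to the library total, so that 1 read was worth 0.0284 to 0.0328 CPM. The *ALKBH5* transcript, as a check of the labels, was at 149 and 172 CPM in the WT libraries and 19.1 and 18.8 CPM in the A5-KO libraries of PPs at 0 h, between 33.7 and 172 CPM in all WT and between 7.43 and 19.1 CPM in all A5-KO PP libraries, and at 78.8 and 81.9 TPM among WT and 4.16 and 3.42 TPM among A5-KO libraries of hILOs. Progenitor markers such as *PDX1* and *NKX6-1* were present in all PP libraries, and their sum over 10 markers at 0 h was 1019 and 1292 CPM in WT and 967 and 1072 CPM in A5-KO. *PTF1A* and *RBPJL* stayed under 1 CPM throughout. Single progenitor and endocrine markers that differed between the genotypes are given below with the markers of other cell types. Hormone genes were high in hILOs, with 15 endocrine markers summing to 36496 and 38822 TPM among WT libraries and 29442 and 30698 TPM among A5-KO libraries.

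A set of 3 WT libraries stood apart from the other WT libraries. The WT library at 2 h replicate 2 and both WT libraries at 3 h had low levels of transcripts that are nearly absent from A5-KO. This was seen in the 5 genes that stayed under 0.5 CPM in all 8 A5-KO libraries and above 4 CPM in all 4 WT libraries at 0 and 1 h, a rule made after the data were seen, and 1 of the 5 is *PCDHGB5*. *MYH14*, *TNFSF9*, *ZNF248* and *ZSCAN5A*, which lie on other chromosomes, fell to 25.9%, 12.9%, 15.2% and 29.4% of their WT level at 0 and 1 h in 2 h replicate 2, and to between 3.43% and 16.9% at 3 h. In WT 2 h replicate 1, which was not set apart, they were already at 77.0%, 36.7%, 64.6% and 55.9%. The part of loss under Act D in these falls was not tested. The 1 gene with the opposite pattern, the lncRNA ENSG00000255860 with a mean of 5.42 CPM in A5-KO, was at 0.14 to 0.26 CPM in WT at 0 and 1 h and at 0.89 and 1.30 CPM in WT at 3 h. *ALKBH5* itself was at 83.4 CPM in WT at 2 h replicate 2, beside 107 CPM in replicate 1, and at 48.3 and 33.7 CPM in WT at 3 h. Whether these 3 libraries also held RNA of A5-KO cells was not tested. Results over time that use them are given with and without them.

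In PPs each cluster spoke through a few members. Of 53 members, 16 averaged 1 CPM or more over the 16 libraries, 10 reached 5 CPM and 14 stayed under 0.1 CPM. In the gamma cluster 7 of 22 passed 1 CPM and 11 were under 0.1 CPM, whereas in the alpha cluster 4 of 15 and in the beta cluster 5 of 16 passed 1 CPM. *PCDHA1*, with only 7 bases of its own, had no read in any library, which does not show that its RNA was absent. *PCDHGA3* had no read in any library either, and *PCDHGA7* and *PCDHGB3* had 4 reads each over all 16. Since these genes share constant exons with abundant neighbours, reads in the constant exons were not credited to every member in this table, and its CPM follow the exons that a member does not share.

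**Figure D1:**
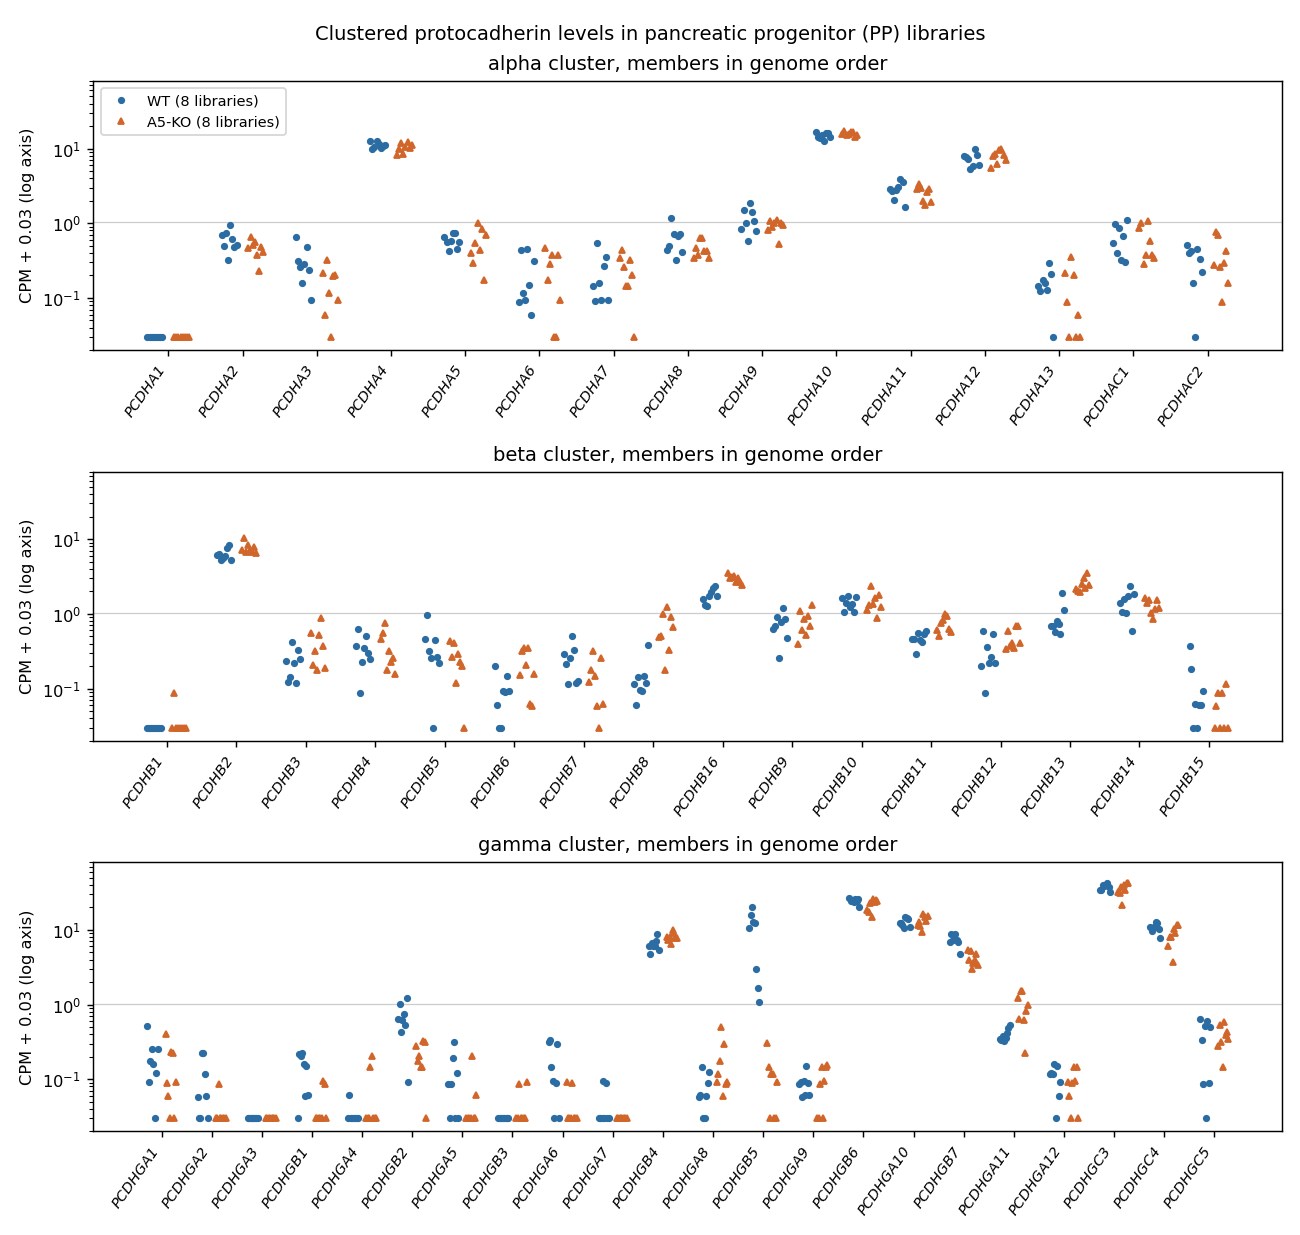
Level of each of the 53 clustered protocadherins in the 16 PP libraries, as CPM plus 0.03 on a log axis, with members in genome order (circles WT, triangles A5-KO, 8 libraries each; grey line 1 CPM). A few members of each cluster stand above 1 CPM in all libraries, and *PCDHGB5* is the member whose WT and A5-KO points lie farthest apart.

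To compare members with each other, CPM were divided by the kilobases of exon that no other gene shares and expressed as a share of the cluster, which was possible for 52 members. In WT PPs at 0 h *PCDHA12* took 45.0% ± 1.17 (s.d., *n* = 2) of the alpha cluster, *PCDHA10* 18.1% ± 1.09, *PCDHA4* 12.1% ± 1.55 and *PCDHA11* 9.47% ± 0.10, together 84.7%. The neighbours in this order did not overlap in their 2 libraries. The same 4 genes held 84.1% in A5-KO PPs at 0 h. The order within the alpha cluster depends on length: without it *PCDHA10* had the most CPM, as its annotated exons are long.

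The beta cluster was led by *PCDHB2*, with 54.4% ± 1.60 in WT and 52.9% ± 6.49 in A5-KO at 0 h. *PCDHB16* followed with 10.1% ± 1.05 in WT, then *PCDHB10* with 8.12% ± 2.40, and these 2 do not differ beyond their spread. *PCDHB1*, the first beta gene, had 2 reads in all 16 libraries.

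In the gamma cluster *PCDHGC3*, a C-type isoform, was first with 31.5% ± 0.81 in WT at 0 h, followed by *PCDHGB6* with 16.9% ± 1.42 and *PCDHGB5* with 14.7% ± 3.68. *PCDHGC4* had 11.0% ± 1.14, *PCDHGB7* 8.51% ± 1.25, *PCDHGA10* 8.33% ± 0.19 and *PCDHGB4* 6.62% ± 1.37, and the remaining 15 members were each under 1%. Of 7 gamma genes with clear RNA, 4 are B-type members that lie next to or near each other, *PCDHGB4* to *PCDHGB7*. *PCDHGB6* and *PCDHGB5* do not differ beyond their spread, nor do *PCDHGB7* and *PCDHGA10*.

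The C-type genes did not behave as a group. *PCDHGC3* lay between 31.9 and 42.7 CPM (median 37.7) in the 8 WT libraries and between 21.6 and 42.7 CPM (median 35.7) in the 8 A5-KO libraries. *PCDHGC4* lay between 7.71 and 12.7 CPM in WT and between 3.68 and 11.7 CPM in A5-KO. *PCDHGC5* stayed under 0.61 CPM, *PCDHAC1* under 1.08 CPM and *PCDHAC2* under 0.74 CPM in every library. The 2 abundant C-type genes overlapped between genotypes over the 16 libraries.

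**Figure D2:**
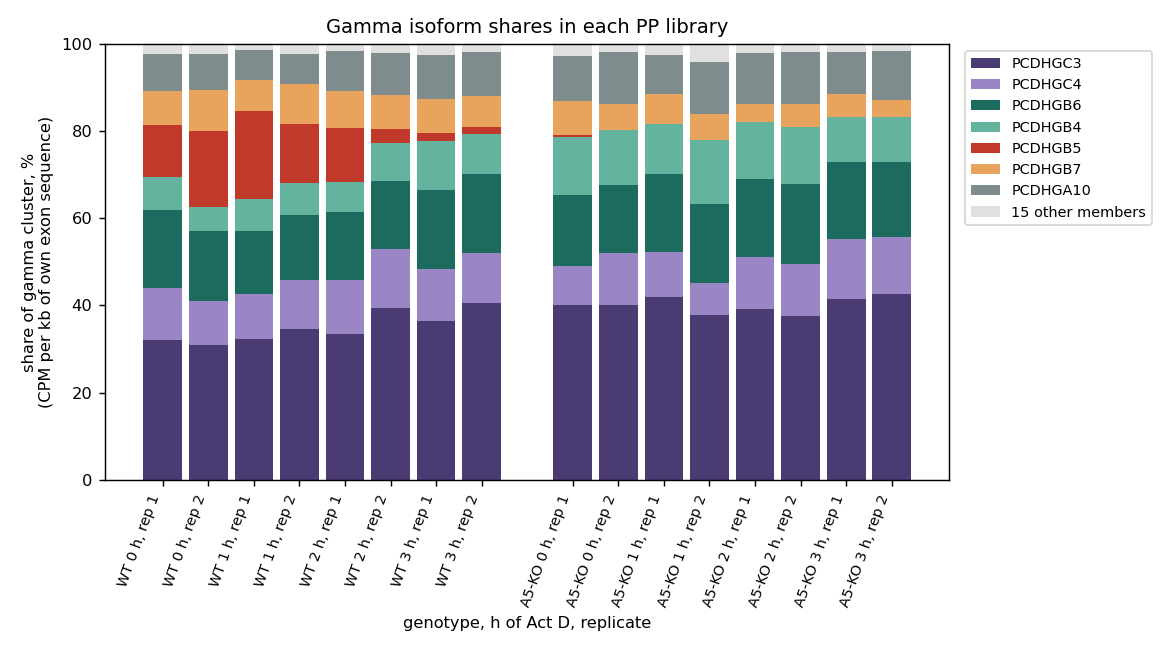
Share of the gamma cluster taken by its 7 leading members and by the 15 others together in each PP library, in percent of CPM per kilobase of own exon sequence (bars, 1 per library, labelled by genotype, h of Act D and replicate). *PCDHGB5* fills 14.7% on average in WT at 0 h and is hardly visible in A5-KO, while the 6 other leading members are seen in every bar.

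*PCDHGB5* (ENSG00000276547, 141397947 on chromosome 5) was the member with the largest difference between the genotypes in PPs, at 0 h and over all times. The WT libraries held 10.7 and 15.8 CPM before the drug, 20.4 and 12.7 CPM after 1 h, 12.2 and 3.00 CPM after 2 h, and 1.64 and 1.04 CPM after 3 h. The A5-KO libraries held 0.28 and 0.12 CPM before the drug, 0 and 0.09 CPM after 1 h, 0.09 and 0 CPM after 2 h, and 0 and 0.06 CPM after 3 h, which is 21 reads in all 8. Every WT library lay above every A5-KO library, also the 3 that stand apart, where it was lowest.

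At 0 h *PCDHGB5* was 67.0 times as high in WT as in A5-KO on the CPM scale, or 47.6 and 113 times against each A5-KO library alone, which held 9 and 4 reads. Its difference was −3.55 ± 0.22 (s.e.) on the log2(CPM + 1) scale (adjusted *p* = 3.70e-05, limma with Benjamini-Hochberg adjustment over 13911 genes). Over all times the difference was −2.89 ± 0.33 (adjusted *p* = 1.62e-05, limma, 13620 genes), and −3.76 ± 0.14 without the 3 WT libraries that stand apart. *PCDHGB5* is itself among the genes by which these libraries were set apart. For this gene the larger difference and smaller s.e. without them follow from that choice and add no support. Its share of the gamma cluster was 0.30% ± 0.17 in A5-KO at 0 h. *PCDHGB4*, whose promoter stretch is nearly the same, was at 6.06 and 4.68 CPM in the WT libraries and 8.04 and 7.38 CPM in the A5-KO libraries at 0 h, 0.46 ± 0.17 higher on the log2 scale (adjusted *p* = 0.19, limma).

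In the test at 0 h, 17 of the 53 members passed the filter of a mean of at least 1 CPM, and 3 of them were called, that is past an adjusted *p* of 0.05 and a 1.5-fold change on the log2(CPM + 1) scale. *PCDHGB5* was the 1 member lower in A5-KO, beside 1.13% of all tested genes called lower, and *PCDHB13* and *PCDHB16* were the 2 called higher, beside 1.57% of all tested genes. The 36 members that did not pass the filter were not tested. The median difference of the 17 members was −0.07, beside 0.03 over all genes tested.

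*PCDHB13* was at 0.66 and 0.65 CPM in the WT libraries and 2.1 and 1.99 CPM in the A5-KO libraries at 0 h, 3.12 times as high in A5-KO (0.88 ± 0.19, adjusted *p* = 0.036, limma). Over the 8 WT libraries it ranged from 0.50 to 1.88 CPM with a median of 0.68, and over the 8 A5-KO libraries from 1.93 to 3.49 CPM with a median of 2.30. The groups did not overlap, and the 2 highest WT values, 1.88 and 1.11 CPM, were those at 3 h, in libraries that stand apart. *PCDHB13* shares no annotated exon with another gene. Whether reads of similar beta genes were placed on it was not tested.

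*PCDHB16* was at 1.55 and 1.30 CPM in the WT libraries and 3.52 and 2.99 CPM in the A5-KO libraries at 0 h, 2.28 times as high in A5-KO (0.81 ± 0.19, adjusted *p* = 0.047, limma). Over all times WT ranged from 1.23 to 2.36 CPM and A5-KO from 2.43 to 3.52 CPM, without overlap. At 2 and 3 h the genotypes were closer together, with WT between 1.71 and 2.36 CPM. Part of its exons overlaps other annotated transcripts on either strand.

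*PCDHGB7* was at 6.89 and 8.80 CPM in the WT libraries and 5.38 and 3.92 CPM in the A5-KO libraries at 0 h (−0.65 ± 0.19, adjusted *p* = 0.10, limma). WT libraries lay between 4.77 and 8.80 CPM (median 7.30) and A5-KO libraries between 2.92 and 5.38 CPM (median 3.94). The groups overlapped only through the WT library at 3 h replicate 2, the lowest of WT.

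Over all 4 times, with time as a term, 16 members were tested and 3 were called by limma. *PCDHGB5* and *PCDHGB7* were lower in A5-KO (*PCDHGB7* −0.71 ± 0.12, adjusted *p* = 0.00085), beside 1.75% of genes called lower, and *PCDHB13* was higher (0.91 ± 0.11, adjusted *p* = 2.29e-05), beside 1.65% called higher. *PCDHB16* passed the test but not the 1.5-fold limit (0.53 ± 0.10, adjusted *p* = 0.0027). Without the 3 WT libraries that stand apart the called members were *PCDHGB5*, *PCDHGB7* (−0.82 ± 0.13) and *PCDHGC4* (−0.60 ± 0.14, adjusted *p* = 0.0038) as lower, beside 1.02% of genes, and *PCDHB13* (0.95 ± 0.12) and *PCDHB16* (0.68 ± 0.12) as higher, beside 2.59% (limma). *PCDHGC4*, a C-type gene, thus depends on which WT libraries enter.

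Counted without a model, 1 of the 16 members lay lower in every A5-KO library than in every WT library, *PCDHGB5*, beside 0.58% of the 13620 genes, and 2 lay higher, *PCDHB13* and *PCDHB16*, beside 1.05%. With 5 WT libraries in place of 8, *PCDHGB7* joined those that were lower and *PCDHB2* those that were higher, beside 1.85% and 3.55% of genes.

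**Figure D3:**
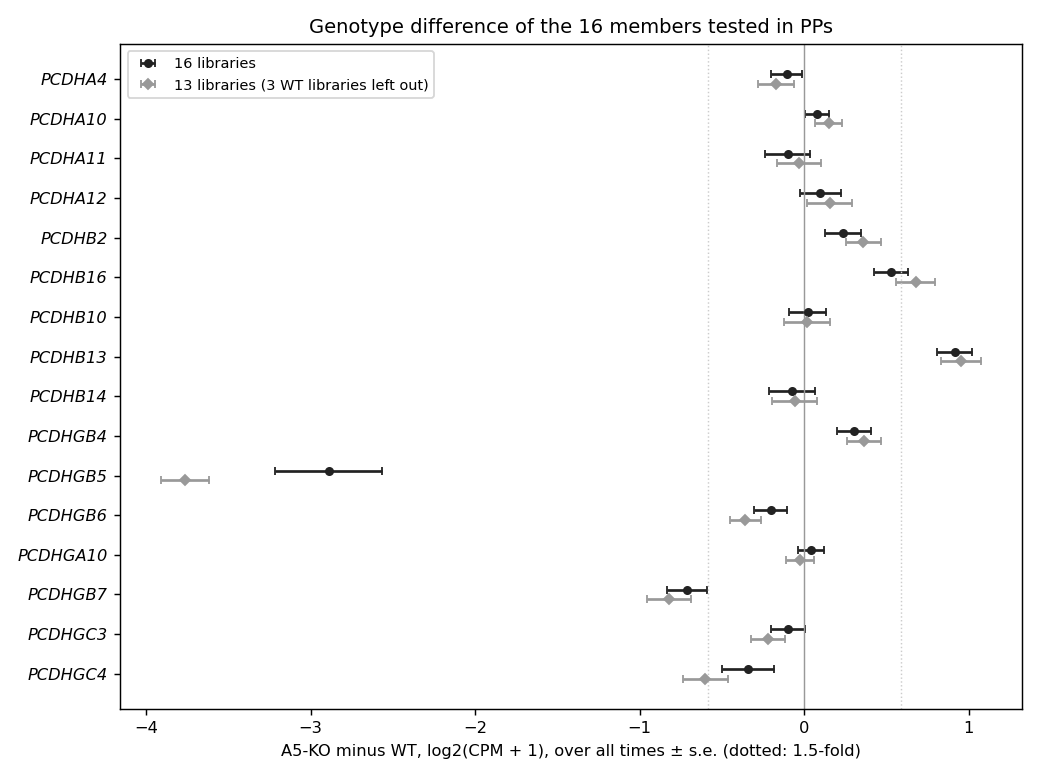
Difference between A5-KO and WT for the 16 members tested over all times in PPs, in log2(CPM + 1) with its s.e. (circles 16 libraries, diamonds 13 libraries after the 3 WT libraries that stand apart were left out, dotted lines 1.5-fold). *PCDHGB5* lies near −2.89, *PCDHGB7* near −0.71 and *PCDHB13* near 0.91, and the 4 alpha members lie between −0.11 and 0.10.

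The alpha cluster differed little between the genotypes. *PCDHA10* was at 16.7 and 14.3 CPM in the WT libraries and 15.5 and 17.1 CPM in the A5-KO libraries at 0 h, and *PCDHA4* at 12.5 and 9.73 CPM in the WT libraries and 8.04 and 9.75 CPM in the A5-KO libraries. *PCDHA12* was at 7.95 and 7.68 CPM in the WT libraries and 5.47 and 7.88 CPM in the A5-KO libraries. The WT and A5-KO values overlapped for each of the 3, and over all times the 4 tested alpha genes differed by −0.11 to 0.10 on the log2 scale, with adjusted *p* between 0.44 and 0.64 (limma).

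The abundant gamma genes differed less than *PCDHGB5*. *PCDHGB6* was at 26.7 and 24.6 CPM in the WT libraries and 18.4 and 17.2 CPM in the A5-KO libraries at 0 h (−0.50 ± 0.12, adjusted *p* = 0.051, limma). *PCDHGC3* was at 33.8 and 33.8 CPM in the WT libraries and 32.1 and 31.2 CPM in the A5-KO libraries (−0.09 ± 0.10, adjusted *p* = 0.67, limma). *PCDHGA10* was at 12.3 and 12.3 CPM in the WT libraries and 11.4 and 12.6 CPM in the A5-KO libraries. The gamma cluster as a whole summed to 109.7 and 112.0 CPM in the WT libraries and 83.9 and 81.7 CPM in the A5-KO libraries at 0 h, and to 99.1 and 96.1 against 83.6 and 81.6 CPM without *PCDHGB5*. The beta cluster summed to 14.4 and 13.9 CPM in the WT libraries and 18.8 and 21.8 CPM in the A5-KO libraries.

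Several members below the filter were reached by the recovered reads, with edgeR on genes with at least 10 reads in total, an alternative added after the data were seen. Over all times 48 members could then be tested, and 3 were called lower, beside 1.76% of 25516 genes, and 4 higher, beside 1.87%. *PCDHB8* was called higher (2.53 on the log2 scale, adjusted *p* = 0.00093, edgeR), with 0.03 to 0.35 CPM in WT and 0.15 to 1.2 CPM in A5-KO. *PCDHGA11* was called higher (1.23, adjusted *p* = 0.012, edgeR), with 0.29 to 0.51 CPM in WT and 0.20 to 1.49 CPM in A5-KO, and *PCDHGB2* lower (−1.84, adjusted *p* = 0.021, edgeR), with 0.06 to 1.19 CPM in WT and 0 to 0.29 CPM in A5-KO. The ranges of the 3 genes overlap between the genotypes. Without the 3 WT libraries that stand apart the 3 genes were called in the same directions (*PCDHB8* 2.86, *PCDHGA11* 1.49 and *PCDHGB2* −1.87), among 4 members lower, beside 1.22% of 24989 genes, and 4 higher, beside 2.49% (edgeR). At 0 h the same tool tested 41 members and called *PCDHGB5* lower, beside 1.06% of 21288 genes, and *PCDHB13* higher, beside 1.08%.

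**Figure D4:**
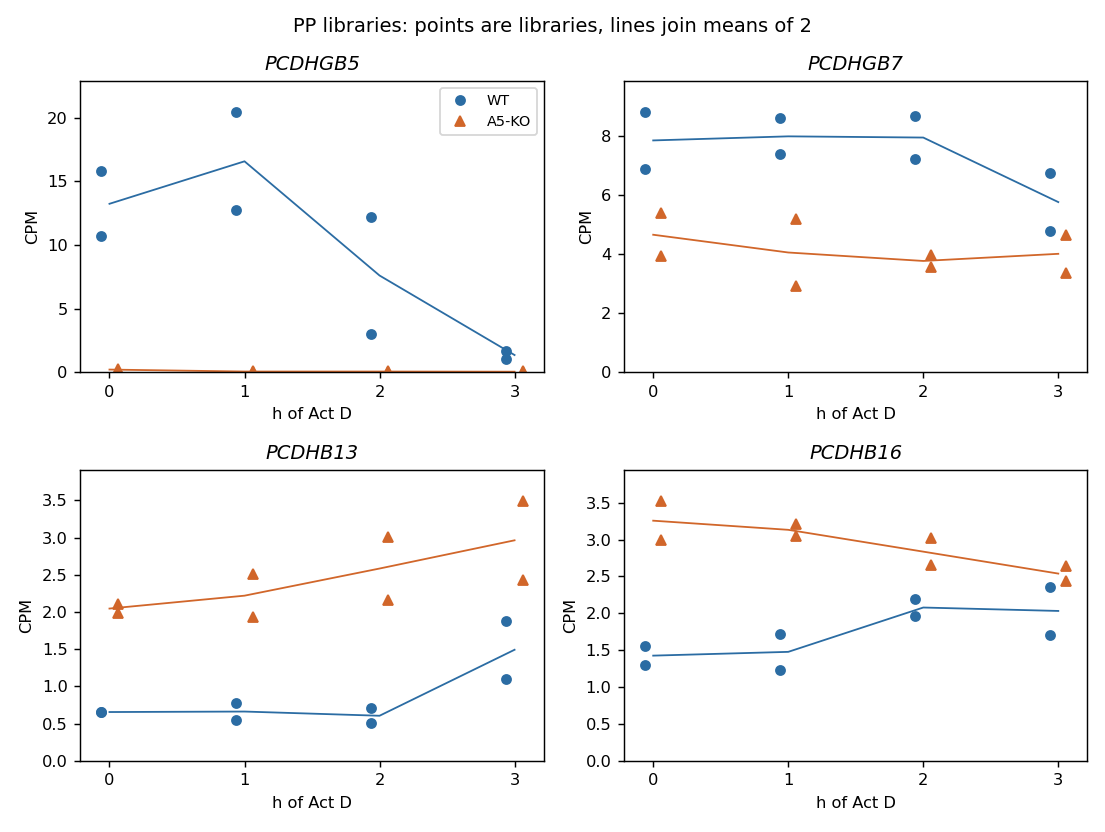
CPM of *PCDHGB5*, *PCDHGB7*, *PCDHB13* and *PCDHB16* against h of Act D in PPs (circles WT, triangles A5-KO, 1 point per library, lines join the means of 2 libraries, axes start at 0). *PCDHGB5* falls in WT at 2 h in replicate 2 and at 3 h in both replicates, from 10.7 to 20.4 CPM at 0 and 1 h down to 1.04 CPM.

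Act D stops transcription, so a slope of log2(CPM + 0.1) over time tells how fast a transcript is lost relative to the library as a whole. Most members kept their CPM: without *PCDHGB5*, the 15 other slopes ran from −0.14 to 0.30 per h in WT and from −0.14 to 0.31 per h in A5-KO. In A5-KO *PCDHGB6* rose by 0.19 ± 0.06 per h (adjusted *p* = 0.012, limma) and *PCDHGC4* by 0.31 ± 0.10 per h (adjusted *p* = 0.022, limma), 2 of 16 members, beside 7.44% of all genes rising and 37.1% falling in A5-KO. In WT limma called 0 of the 16 members, beside 0.11% of genes falling and 0.132% rising. At an unadjusted *p* under 0.05, 1 member fell and 2 rose (limma). Genes as a whole were not counted at that limit, so nothing can be concluded from these counts. *PCDHGB5* had the steepest WT slope, −1.1 ± 0.23 per h (adjusted *p* = 0.056, limma).

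The WT slopes changed without the 3 WT libraries that stand apart. That of *PCDHGB5* was then 0.01 ± 0.30 per h (adjusted *p* = 0.99, limma), and the 15 others ran from −0.23 to 0.23 per h. For *PCDHGB5* this change follows from the choice of libraries, since its low values helped to set them apart. In WT limma still called 0 of the 16 members, beside 24.8% of genes falling and 2.24% rising. At an unadjusted *p* under 0.05 there were 0 members (limma), and genes as a whole were again not counted. In A5-KO, whose spread is estimated together with WT, 3 members were then called rising, with *PCDHGC3* added (0.16 ± 0.06 per h, adjusted *p* = 0.041, limma), beside 9.35% of genes rising and 40% falling.

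The difference between the slopes asks whether loss of a transcript relative to the library as a whole differed between the genotypes. A loss shared by all transcripts cannot show in it, since CPM are scaled to the library total and hold no spike-ins. The study, which used spike-ins, reported lower mRNA stability across transcripts in A5-KO PPs. The slope difference was called by limma for 0 of the 16 members, beside 2.61% of genes called lower and 0.0661% called higher in A5-KO. At an unadjusted *p* under 0.05, 1 member was lower and 3 higher, beside 2725 and 322 of 13620 genes (limma). DESeq2 on the recovered reads called 1 higher, *PCDHGB6*, beside 132 of 13620 genes called higher, and edgeR called 0, beside 10. For *PCDHGB5* the difference was 0.75 ± 0.32 per h (adjusted *p* = 0.17, limma), and without the 3 WT libraries that stand apart it was −0.36 ± 0.34 (adjusted *p* = 1.00, limma), so its sign rests on them. Without those libraries 0% of genes were called in either direction.

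In hILOs the deposited TPM did not separate most members. TPM multiplied by the exon length of the gene, which undoes the division by length, was the same within 1% for 9 to 13 of the 22 gamma genes in each library, and within 5% for 16 to 18. The level they shared was 55.5 and 55.6 TPM × kb in WT and 42.2 and 48.0 TPM × kb in A5-KO. In the alpha cluster 4 or 5 of 15 genes lay within 1% of a shared level of 128 and 130 TPM × kb in WT and of 113 and 109 TPM × kb in A5-KO. *PCDHGA3*, with no read in any PP library, was listed at 11.4 and 11.4 TPM among WT libraries and 8.67 and 9.85 TPM among A5-KO libraries. The hILO values of such members thus mostly hold what the cluster has in common, and a fold change of 1 of them is not independent of its neighbours.

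**Figure D5:**
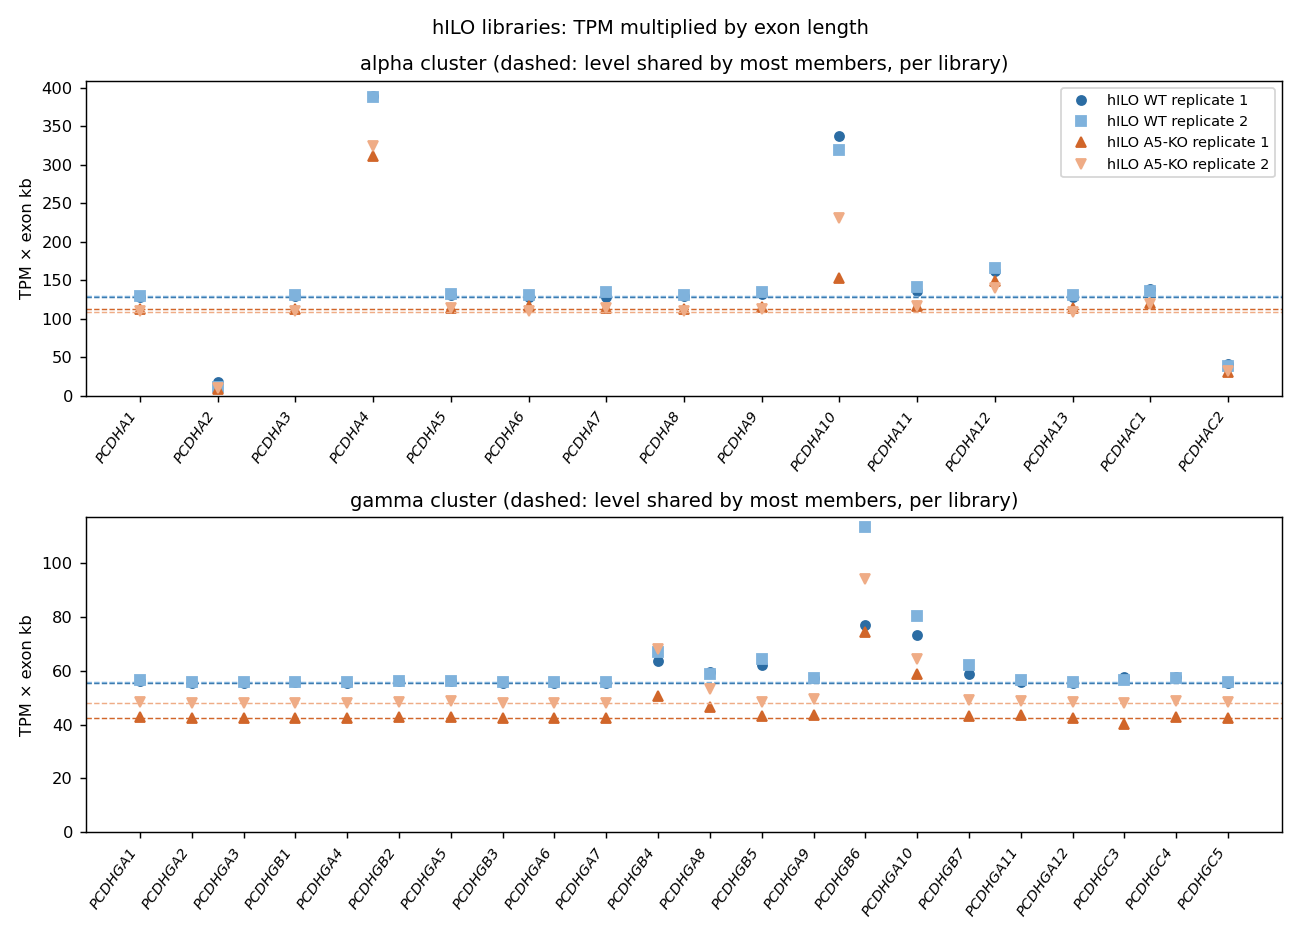
TPM multiplied by exon length (kb) for the 15 alpha and 22 gamma genes in genome order in the 4 hILO libraries (symbols), with the level shared by most members of the cluster in each library (dashed lines). Most members sit on the dashed line of their library, and *PCDHA4*, *PCDHA10*, *PCDHA12*, *PCDHGB6* and *PCDHGA10* stand above it.

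Above the shared level, the members that stood out were largely those that led in PPs. In the alpha cluster *PCDHA4* lay 262 and 258 TPM × kb above it in WT and 198 and 215 in A5-KO, *PCDHA10* 209 and 190 in WT and 39.9 and 121 in A5-KO, and *PCDHA12* 34.4 and 36.5 in WT and 36.2 and 31.3 in A5-KO. *PCDHA2* and *PCDHAC2* lay below the level in all 4 libraries. Per kilobase of own exons the first 4 alpha genes were *PCDHA4*, *PCDHA10*, *PCDHA12* and *PCDHA11*, which are also the first 4 in WT PPs at 0 h, in another order.

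In the gamma cluster *PCDHGB6* lay 21.5 and 57.5 TPM × kb above the level in WT and 31.9 and 45.9 in A5-KO, and *PCDHGA10* 17.8 and 24.8 in WT and 16.5 and 16.2 in A5-KO. *PCDHGB5* lay 6.67 and 8.65 TPM × kb above it in WT and 0.99 and 0.45 in A5-KO, and *PCDHGB7* 3.1 and 6.63 in WT and 0.98 and 1.1 in A5-KO. *PCDHGB4*, which precedes both in the cluster, lay 7.90 and 11.2 above it in WT and 8.44 and 20.1 in A5-KO. The values of *PCDHGB5* and *PCDHGB7* were lower in both A5-KO libraries, and this measure was devised after the data were seen and was not tested. *PCDHGC3* and *PCDHGC4*, the first and the fourth in PPs, lay between −2.12 and 2.22 TPM × kb from the level in the 4 hILO libraries.

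By TPM as deposited, limma tested 40 members in hILOs and called 0, beside 4.09% of 17300 genes called lower and 2.7% called higher. At an unadjusted *p* under 0.05, 8 members were lower and 0 higher, beside 3238 and 2106 of the 17300 genes (limma). The 15 alpha and 22 gamma genes were all below 0 in their difference, with medians of −0.21 and −0.28 on the log2(TPM + 1) scale beside −0.06 over all genes. *PCDHGB5* was at 12.7 and 13.1 TPM among WT libraries and 8.85 and 9.91 TPM among A5-KO libraries (−0.43 ± 0.11, adjusted *p* = 0.078, limma), *PCDHGB6* at 11.4 and 16.7 against 10.9 and 13.9 TPM, and *PCDHGB7* at 11.8 and 12.5 against 8.71 and 9.89 TPM. *PCDHA10* was at 21.5 and 20.4 TPM among WT libraries and 9.76 and 14.7 TPM among A5-KO libraries (−0.75 ± 0.21, adjusted *p* = 0.091, limma).

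The beta genes have no constant exons, so their TPM hold no level that constant exons spread over the cluster. Whether similar beta genes exchanged reads was not tested. *PCDHB2* was at 8.49 and 6.79 TPM among WT libraries and 6.67 and 5.43 TPM among A5-KO libraries of hILOs, and *PCDHB10* at 2.1 and 1.87 against 2.42 and 0.60 TPM. *PCDHB16* was at 1.05 and 1.30 TPM among WT libraries and 2.19 and 1.88 TPM among A5-KO libraries (0.48 ± 0.20, adjusted *p* = 0.20, limma), higher in both A5-KO libraries as in PPs. *PCDHB13* was at 0.39 and 0.34 TPM among WT libraries and 0.47 and 0.61 TPM among A5-KO libraries, under the filter. The other 12 beta genes had means under 1 TPM as well.

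Genes listed as regulators of the clusters were called in small numbers in the genotype comparisons, and more often in the difference between the slopes. The list of 26 holds CTCF, cohesin and its loaders, and general DNA methylation and silencing factors. Of these, 25 were tested in PPs at 0 h and 1 was called, beside 1.57% of genes called higher and 1.13% lower. This was *LRIF1*, a partner of the silencing factor SMCHD1, at 20.8 and 15.1 CPM in the WT libraries and 33.9 and 27.4 CPM in the A5-KO libraries (0.75 ± 0.17, adjusted *p* = 0.038, limma). The median of the 25 was 0.08 beside 0.03 over all genes. *CTCF*, which binds the promoters and their enhancers, was at 82.6 and 63.2 CPM in the WT libraries and 99.1 and 79.0 CPM in the A5-KO libraries. Over all times *LRIF1* was at 0.33 ± 0.19 and was called only without the 3 WT libraries that stand apart (0.80 ± 0.10, adjusted *p* = 1.66e-05, limma). In the difference between the slopes 4 of 25 were called lower in A5-KO, beside 2.61% of genes, namely *CTCF* (−0.56 ± 0.13 per h), the cohesin subunit *SMC3* (−0.28 ± 0.07), the cohesin loader *NIPBL* (−0.34 ± 0.09) and the cohesin release factor *WAPL* (−0.53 ± 0.11), with adjusted *p* of 0.037 to 0.049 (limma). Without the 3 WT libraries these 4 were not called, nor was any other gene, and *CTCF* was at −0.09 ± 0.13 per h. In hILOs 2 of 25 were called lower, beside 4.09% of genes, *TET2* (−1.11 ± 0.18, adjusted *p* = 0.034, limma), which oxidizes methylcytosine, and *UHRF1* (−0.88 ± 0.12, adjusted *p* = 0.023, limma), which helps keep DNA methylation.

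Of 17 genes that flank the clusters or lie between them, 14 were tested in PPs over all times and 1 was called, beside 1.75% of genes called lower. This was *ARAP3* (−0.63 ± 0.12, adjusted *p* = 0.0015, limma; −0.75 ± 0.12 without the 3 WT libraries), and the median was −0.02. In hILOs 3 of 13 were called, *TAF7* lower (−0.77 ± 0.10) and *FCHSD1* (0.78 ± 0.12) and *PCDH1* (0.81 ± 0.12) higher, with adjusted *p* of 0.020 to 0.029 (limma), beside 4.09% and 2.7% of genes. Of 21 non-clustered protocadherins and their FAT and DCHS relatives, 15 were tested at 0 h and 1 was called, beside 1.57% of genes called higher. This was *PCDH7*, at 1.32 and 0.99 CPM in the WT libraries and 4.36 and 5.54 CPM in the A5-KO libraries (1.46 ± 0.20, adjusted *p* = 0.0034, limma). It was called higher in hILOs too, with *PCDH1* and *FAT3*, 3 of 13 tested beside 2.7% of genes, and its slope was called lower in A5-KO (−0.53 ± 0.12 per h, adjusted *p* = 0.041, limma), which was lost without the 3 WT libraries. Of 18 classical cadherins 7 were tested at 0 h. Of these, *CDH6* was called higher (0.87 ± 0.19, adjusted *p* = 0.037, limma), beside 1.57% of genes, and *CDH11* lower (−0.96 ± 0.16, adjusted *p* = 0.012, limma), beside 1.13%. Over all times *CDH1* and *CDH3* were called higher as well, beside 1.65% of genes with the 3 WT libraries and 2.59% without them. In hILOs 4 of 11 were called, all lower, beside 4.09% of genes: *CDH6*, *CDH9*, *CDH12* and *CDH22*. *CDH6* thus went the other way there, at 12.9 and 11.3 against 6.80 and 6.57 TPM (−0.77 ± 0.12, adjusted *p* = 0.029, limma). The 16 cytoplasmic partners of protocadherins had a median of 0.03 at 0 h, the same as all genes.

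Markers of other cell types moved between the genotypes beside these results. At 0 h 10 hepatic markers summed to 1159 and 1218 CPM in the WT and 1968 and 2003 CPM in the A5-KO libraries of PPs. Of these 10, 6 were called higher, beside 1.57% of genes. The 12 mesenchyme markers summed to 543 and 549 against 656 and 665 CPM. Of 8 tested, 4 were called higher, beside the same 1.57%. The 15 neuronal and neural progenitor markers summed to 146 and 156 against 148 and 151 CPM, with *ELAVL4* and *SOX1* at 0 in every PP library. In hILOs the neuronal sum was 985 and 1003 TPM among WT and 1180 and 1221 TPM among A5-KO libraries. Of 12 neuronal markers tested there, 3 were called lower and 3 higher, beside 4.09% and 2.7% of genes. The hepatic sum in hILOs was 20658 and 21010 against 36000 and 36270 TPM, with 4 of 10 called higher and 2 lower, beside 2.7% and 4.09%. The mesenchyme sum was lower, 266 and 273 against 170 and 175 TPM, through *VIM* (−1.07 ± 0.03, adjusted *p* = 0.0021, limma). Of 6 tested mesenchyme markers, 3 were called higher, beside 2.7% of genes. Of 8 progenitor markers tested in PPs, *ONECUT1* was called lower at 0 h, beside 1.13% of genes. Over all times *GATA6*, *NKX6-1*, *ONECUT1* and *SOX9* were called lower, beside 1.75%. Without the 3 WT libraries that stand apart only *ONECUT1* was, beside 1.02%. In hILOs 5 of 15 endocrine markers were called lower and 2 higher, beside 4.09% and 2.7% of genes. Fewer cells of a type and less RNA per cell cannot be told apart in bulk libraries, and the part of cell composition in the protocadherin differences was not tested.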

How the data were processed

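The 4 hILO and 16 PP RNA-seq libraries were grouped by genotype and time as their labels give them. For hILOs the authors trimmed reads with fastp, aligned them to GRCh38 (hg38) with HISAT2 2.1.0, quantified transcripts with StringTie and deposited TPM per gene. For PPs the authors deposited CPM per gene after removal of ERCC spike-ins. The read counter and the annotation release are not given in the sources used here. All CPM values were whole multiples of 1 read (tolerance 0.05 of a read), so that counts were recovered, 30516384 to 35206514 per library. TPM keeps no depth. Of 60623 PP gene identifiers 60369 matched a symbol, and of 60624 hILO identifiers 60370.

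Genotypes were compared in limma 3.58.1 under R 4.3.3 (trended eBayes), on log2(CPM + 1) or log2(TPM + 1) of genes averaging 1 or more, in hILOs, in PPs at 0 h, and in PPs over all times with time as a term. Slopes over time used log2(CPM + 0.1). Calls required *p* below 0.05 after Benjamini-Hochberg adjustment over all tested genes and a change over 1.5-fold (slopes: the adjusted *p* alone). Fold changes on these log scales understate the change of low genes. With 2 libraries a group an exact permutation test could not reach 0.05. On simulated data with 200 genes changed by 2 on the log2 scale (1 per h for slopes), limma found all 200 in each of the 4 comparisons and called 0 to 12 unchanged genes; smaller changes were not simulated. Alternatives were other pseudocounts, filters and normalizations, the recovered reads in edgeR 4.0.16 and in DESeq2 1.42.0, the replicate number as a block, and leaving out each library. Exon lengths and overlaps came from GENCODE v44, the constant exons from the exon bases that all members of a cluster share, and promoter sequences from RefSeq. Values are given for the 3 highest members of each cluster per length, the C-type members and each called member, and the rest by ranges and counts. The members and the gene lists were chosen with earlier results of these data known.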

Additional observations from a re-analysis of the deposited data

How the results depend on the processing

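In PPs *PCDHGB5* kept its direction in every alternative of both genotype comparisons in which it passed the filter, and no called gene reversed. At 0 h the count of members lower in A5-KO, 1, was 2 at 1 h, with DESeq2 and with the replicate block, which adds *PCDHGB7*, and it was 0 at 2 h and at 3 h, where *PCDHGB5* missed the threshold or the filter. The count of members higher, 2, was 1 with DESeq2, with edgeR on low genes too, and at a pseudocount of 0.1, and 0 without the filter, at 2 h and at 3 h. Calls over all genes moved too. At 1 h 161 of 13549 genes were lower and 432 higher. At 2 h these were 35 and 144 of 13383, and at 3 h 2234 and 144 of 13444. DESeq2 gave 225 and 234 of 13911, a pseudocount of 0.1 gave 158 and 220, and no filter gave 77 and 87 of 29122. Leaving out any 1 of the 4 libraries at 0 h left 1 member lower and 0 higher each time (limma), so that the calls of *PCDHB13* and *PCDHB16* at 0 h need all 4. Over all times the count higher, 1, was 2 with DESeq2, with edgeR, at a pseudocount of 0.1, without the 2 h or the 3 h libraries and without the 3 WT libraries that stand apart (each adds *PCDHB16*), and 4 with edgeR on low genes too. With edgeR on low genes and without those 3 libraries it was 4, and the count lower, 2, was 4. Leaving out 1 library gave 2 lower and 1 higher throughout. Across the main fit and the other alternatives over all times, 139 to 448 genes were called lower and 186 to 621 higher. The slope differences gave 3 members higher with 0 and 3 h only (*PCDHGB5*, *PCDHGB6* and *PCDHGC4*) and 1 with DESeq2, and 0 when 1 library was left out. With 0 and 3 h only, 290 of 13740 genes were called higher and 2739 lower. With DESeq2 these were 132 and 728 of 13620. In hILOs 0 members were called in any alternative. The share of *PCDHA12* in the alpha cluster was 32.5% per kilobase of all exons and 18.7% with no length scaling, that of *PCDHB2* 42.6% and 44%, and that of *PCDHGC3* 30.5% with no length scaling.

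Replicate numbers showed no steady pairing of the libraries. Their deviations from the group means correlated between the genotypes at −0.02 at 1 h, −0.11 at 2 h, 0.00 at 3 h and 0.04 in hILOs. At 0 h the correlation was 0.29, so libraries of the same number may share an effect there, which the main fit leaves out. With the replicate block the 0 h comparison had 2 members lower and 2 higher, and the block changed no other count of members. Over all 13911 genes at 0 h the block gave 266 lower and 365 higher, beside 157 and 218 in the main fit. With 2 libraries per group and time, 36 of 53 members under 1 CPM at 0 h, and constant exons that TPM spreads over all genes of a cluster, small differences of single members were not detectable.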
